A study of Mus musculus with 9 samples.

Results

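The genes described here are the solute carrier (Slc) transporter genes that the authors listed as differing between groups of Schwann cells. They were taken as all entries of the 3 deposited tables whose symbol begins with Slc and a digit, leaving out Slc16a3, and were joined by gene identifier. This gave 19 of the 819 genes in the tables, from 12 Slc families. The symbols and gene descriptions in the tables bear out the label: each of the 19 is described there as a solute carrier family member. Of the 19 genes, 8 stood in 1 table and 11 in 2 tables, and none stood in all 3.

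RNA was sequenced from RSC96, a rat Schwann cell line, in 3 groups of 3 libraries. E-SCs were RSC96 cells given exosomes of menstrual blood-derived stem cells (MenSCs), and M-SCs were RSC96 cells given MenSCs conditioned medium. SCs were the controls, which the titles describe as grown with control MenSCs and the design text as control cells. The design text also mentions a coculture with MenSCs exosomes without naming a group, so a difference from SCs may not be a difference from untreated cells. No dose, time or passage is given, and all groups are 1 cell line. The labels do not tell whether the libraries within a group are independent cultures. A p-value here reflects library-to-library spread alone, some or all of which could be technical. The study asked which genes go with Schwann cell proliferation under these treatments.

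Solute carriers are membrane proteins that move sugars, amino acids, metal ions, organic anions and metabolites across the plasma membrane and the membranes of organelles, by exchange, by cotransport with ions or down a gradient. They are grouped into families by sequence, so members of a family may carry different substrates. In peripheral nerve, Schwann cells take up and release such solutes for their own metabolism and for that of the axons they wrap.

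The authors gave read counts scaled between libraries, whose log2 (with 1 added) is the scale of every difference and test below. Each table holds 1 pair of groups and only genes that the authors had picked at 2-fold or more with p under 0.05, so the tests below describe genes already picked on the same libraries, and a gene missing from a table was not shown to be unchanged. For 11 of the 19 genes the tables together gave values in all 9 libraries. The relative depth of the libraries ran from 0.868 to 1.16 times that of E-SCs replicate 1. Depth here is the reads per unit of scaled count, recovered from the authors' scaling, and need not equal the sequencing depth. The tests are limma with Benjamini-Hochberg adjustment over all genes of a table, at a threshold of 0.05. In RNA of whole cultures, fewer cells with a transcript and less of it per cell cannot be told apart.

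Most of the listed differences lay between M-SCs and the other groups, as they did for all listed genes. The tables that hold M-SCs list 405 and 555 genes, and the other lists 185. The M-SCs and SCs table lists 12 of the solute carrier genes. Of these, 11 passed limma's test, where 83.2% of its 405 genes passed. Of the 11, 7 were higher in M-SCs (50.4% of the 405) and 4 lower (32.8%). The median log2 difference was 1.17 over the 12 and 1.13 over the 405. The E-SCs and M-SCs table lists 14, and all 14 passed, where 92.1% of its 555 genes passed. Of these, 5 were higher in E-SCs (36.6% of the 555) and 9 lower (55.5%). The medians were -1.27 over the 14 and -1.10 over the 555. The E-SCs and SCs table lists 4, and 2 passed, where 65.4% of its 185 genes passed. Slc25a29 was the higher one (31.9% of the 185 passed as higher) and Slc35f1 the lower (33.5%), and with the libraries set to equal medians the 2 calls were both lower, Slc35f1 and Slc12a8. The libraries of the groups did not overlap for 12 of 12, 14 of 14 and 2 of 4 genes, against 83.0%, 89.9% and 71.9% of all genes in the same tables. By an FDR under 0.05 in the authors' deposited tables the counts were 9 of 12, 11 of 14 and 1 of 4, against 70.4%, 79.5% and 45.9% of all genes listed. The shares in the tables that hold M-SCs are near those of all listed genes, and 4 genes are too few to read a share from.

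**Figure D1:**
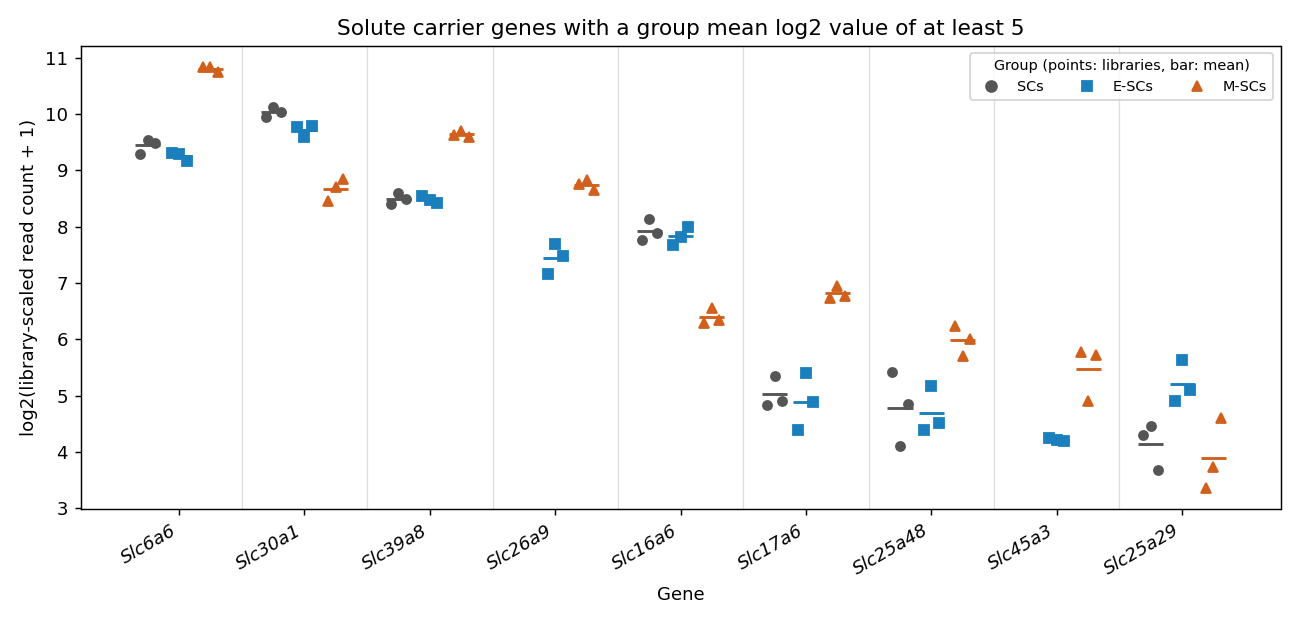
Values of 9 solute carrier genes with a group mean log2 value of at least 5, by library. The vertical axis is log2(library-scaled read count + 1), points are libraries and bars are group means. In Slc6a6, Slc39a8, Slc17a6 and Slc25a48 the M-SCs libraries lie above both other groups, in Slc30a1 and Slc16a6 they lie below both, and Slc26a9 and Slc45a3 have no SCs value in the tables used.

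The taurine transporter gene Slc6a6 (ENSRNOG00000009019) was the most abundant of these genes by FPKM in M-SCs. Its protein carries taurine, an osmolyte, into the cell together with sodium and chloride. The SCs libraries held scaled counts of 625, 746 and 719, the E-SCs libraries 633, 628 and 574, and the M-SCs libraries 1827, 1817 and 1715. Every M-SCs library lay more than 2-fold above every library of the other groups, and the SCs and E-SCs libraries overlapped. It rose in M-SCs by 1.36 against SCs (SE 0.08, limma adjusted p = 8.85e-07). The difference of E-SCs from M-SCs was -1.55 (SE 0.06, limma adjusted p = 5.35e-08). With equal medians the difference from SCs was 0.86, still past the threshold.

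The zinc carrier genes moved in opposite directions in M-SCs. Slc39a8 (ENSRNOG00000012508) encodes ZIP8, which brings zinc, manganese and iron into the cytosol, and Slc30a1 (ENSRNOG00000004749) encodes ZnT1, which exports zinc across the plasma membrane. Slc39a8 had scaled counts of 337, 385 and 358 in the SCs libraries, 375, 357 and 341 with exosomes, and 794, 835 and 774 with conditioned medium. SCs and E-SCs were interleaved and M-SCs lay above both. The increase in M-SCs was 1.15 (SE 0.08, limma adjusted p = 3.96e-06), and the difference of E-SCs from M-SCs was -1.16 (SE 0.07). Equal medians gave 0.65 and -0.70, both past the threshold. Slc30a1 had 990, 1118 and 1049 in the SCs libraries, 869, 776 and 886 with exosomes, and 350, 415 and 459 with conditioned medium. The 3 groups did not overlap in Slc30a1, with SCs highest and M-SCs lowest. The difference of M-SCs from SCs was -1.37, a fall (SE 0.11, limma adjusted p = 6.54e-06), and was higher in E-SCs than in M-SCs by 1.05 (SE 0.11).

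Per length, in the authors' FPKM (fragments scaled by transcript length and library size), the order of the zinc genes turned over. Slc39a8 was at 3.41 ± 0.23 (SD, n = 3) in SCs and 3.41 ± 0.17 in E-SCs, and at 7.57 ± 0.26 in M-SCs. Slc30a1 went from 12.4 ± 0.76 in SCs and 9.97 ± 0.68 in E-SCs to 4.79 ± 0.64 in M-SCs. The ratio of Slc39a8 to Slc30a1 within a library was 0.275, 0.277 and 0.275 for SCs, 0.348, 0.371 and 0.309 for E-SCs, and 1.83, 1.62 and 1.36 for M-SCs. Slc30a1 thus had the higher level in all 6 libraries of SCs and E-SCs and the lower level in the 3 libraries of M-SCs. The ratio of this pair was formed after the values were seen and was not tested.

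**Figure D2:**
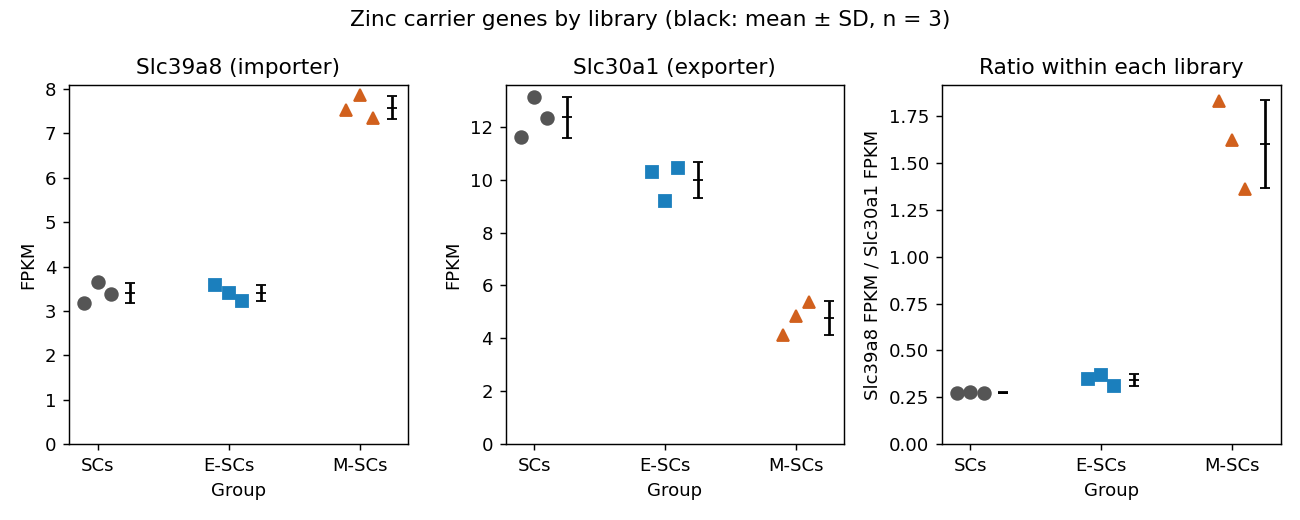
FPKM of Slc39a8 and Slc30a1 and their ratio in each library, with black marks for the mean and SD of 3 libraries. In M-SCs the importer lies above the other groups and the exporter below them, and the ratio is 1.36 to 1.83 there against at most 0.371 in the other 6 libraries.

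Other genes of metal handling were listed beside them. Of a list of 20 metal buffering and iron genes, the M-SCs and SCs table holds 3, which all rose in M-SCs, where 50.4% of all its genes passed as higher. The E-SCs and M-SCs table holds 5 of the list, which were all lower in E-SCs, where 55.5% of all its genes passed as lower. Tfrc, the transferrin receptor that takes up iron, rose from a mean scaled count of 3331 in SCs to 7883 in M-SCs, a difference of 1.24 (SE 0.06). Cp, the copper-bound ferroxidase ceruloplasmin, rose from 3539 to 8385, with an SE of 0.05 on the log2 scale. The metallothioneins Mt2A and Mt1m, which bind zinc and copper in the cytosol, differed by -1.13 (SE 0.03) and -1.05 (SE 0.05) between E-SCs and M-SCs, and were not listed against SCs.

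Slc16a6 and Slc16a8 were lower in M-SCs than in SCs. Slc16a6 (ENSRNOG00000000245) encodes MCT7, which in zebrafish exports ketone bodies from liver cells. The SCs libraries held scaled counts of 216, 281 and 236, the E-SCs libraries 204, 226 and 254, and the M-SCs libraries 77.4, 93.8 and 80.1. Here M-SCs lay below both other groups, which overlapped. Slc16a6 fell in M-SCs, with a difference from SCs of -1.53 (SE 0.16, limma adjusted p = 3.79e-05), and was higher in E-SCs than in M-SCs by 1.43 (SE 0.15). Slc16a8 encodes MCT3, a lactate transporter known from the retinal pigment epithelium. It had 3, 9 and 4 reads in SCs and none in the 3 M-SCs libraries. With 3 reads over the group taken as the floor, it was 5.37-fold lower in M-SCs. It passed limma's test as lower in M-SCs (adjusted p = 0.00415).

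The listed members of the Slc17 family differed widely in level. Slc17a6 (ENSRNOG00000016147) encodes VGLUT2, which loads glutamate into synaptic vesicles of neurons. The SCs libraries held 31, 42 and 27 reads, the E-SCs libraries 20, 40 and 25, and the M-SCs libraries 113, 110 and 126. SCs and E-SCs overlapped and M-SCs were higher than both. It rose by 1.79 in M-SCs against SCs (SE 0.22, limma adjusted p = 1.40e-04), and the difference of E-SCs from M-SCs was -1.92 (SE 0.28). Even in M-SCs its level per length stayed low, at an FPKM of 0.847 ± 0.064 (SD, n = 3). Slc17a3, which encodes an organic anion transporter of kidney and liver, had 2, 7 and 7 reads in the controls, 5, 2 and 4 with exosomes, and 52, 12 and 37 with conditioned medium. The M-SCs libraries spread more than 3-fold among themselves and all lay above the other groups. Reads per depth were 6.27 times those of SCs, with an exact 95% interval for counting error of 3.68 to 11.4. Slc17a3 passed limma's test in M-SCs against SCs (difference 2.34, SE 0.64, adjusted p = 0.0103), and missed it without M-SCs replicate 1 (adjusted p = 0.056). E-SCs differed from M-SCs by -2.61 (SE 0.58, limma adjusted p = 0.00346). Slc17a9, which encodes the vesicular transporter of ATP, had 4, 6 and 4 reads in the controls, 2, 6 and 3 with exosomes, and none in the 3 M-SCs libraries. It passed limma's test as lower in M-SCs than in SCs (adjusted p = 0.00275), 4.70-fold by the same floor. It also passed as higher in E-SCs than in M-SCs (limma adjusted p = 0.00475), 4.05-fold by that floor. The FDR in the authors' deposited tables was 0.0584 and 0.0883. On the FPKM scale the difference between E-SCs and M-SCs missed limma's test (adjusted p = 0.083).

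Slc26a9 (ENSRNOG00000029514), a chloride carrier gene, stood in the E-SCs and M-SCs table alone. The E-SCs libraries held scaled counts of 142, 205 and 178, and the M-SCs libraries 434, 454 and 399. The groups did not overlap and the difference was -1.30 (SE 0.14, limma adjusted p = 4.71e-05), or -0.84 with equal medians. Slc45a3 (ENSRNOG00000007591), whose protein prostein is known from the prostate, was also listed there alone. The E-SCs libraries held 18, 17 and 15 reads, and the M-SCs libraries 58, 26 and 60. E-SCs libraries were lower without overlap, with a difference of -1.25 (SE 0.34, limma adjusted p = 0.00908). With the libraries set to equal medians the Slc45a3 call was lost (adjusted p = 0.071). Slc2a5 encodes GLUT5, the fructose transporter. It had no read in the 3 SCs and 3 E-SCs libraries. The M-SCs libraries held 2, 7 and 5 reads, 4.64-fold above SCs by the floor. It passed limma's test (adjusted p = 0.00671 against SCs and 0.00477 against E-SCs), and its FDR in the authors' deposited tables was 0.0578 and 0.0544. On the FPKM scale the difference from SCs missed limma's test (adjusted p = 0.056).

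The mitochondrial carriers of the Slc25 family had at most 80 reads in a library. Slc25a48 (ENSRNOG00000012040), linked in human and mouse work to choline uptake by mitochondria, had 47, 17 and 26 reads in the controls, 20, 34 and 19 with exosomes, and 80, 46 and 74 with conditioned medium. Scaled for depth, all M-SCs libraries were above all others, with SCs spread over more than a 2-fold range. It rose in M-SCs by 1.20 (SE 0.36, limma adjusted p = 0.0157), and the call was lost without M-SCs replicate 1 or 3 (adjusted p = 0.072 and 0.051) and with equal medians (0.14). E-SCs lay below M-SCs, with a difference of -1.29 (SE 0.31, limma adjusted p = 0.00478).

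Slc25a29 (ENSRNOG00000004351) was the only 1 of the 19 listed in both tables that hold E-SCs. It encodes a mitochondrial carrier of basic amino acids such as arginine and lysine. The SCs libraries held scaled counts of 18.6, 20.9 and 11.8, the E-SCs libraries 29, 48.5 and 33.4, and the M-SCs libraries 9.32, 12.3 and 23.2. E-SCs libraries were the highest, while SCs and M-SCs overlapped. It rose in E-SCs by 1.07 against SCs (SE 0.36, limma adjusted p = 0.0365) and was higher than in M-SCs by 1.31 (SE 0.42, adjusted p = 0.0184). Against SCs the call was lost without replicate 1 or 3 of SCs or replicate 2 or 3 of E-SCs (adjusted p from 0.062 to 0.088), and in a fit of all 9 libraries (0.084) and with equal medians (0.069). Against M-SCs it was lost without E-SCs replicate 2, M-SCs replicate 1 or M-SCs replicate 2 (adjusted p from 0.056 to 0.078). Slc25a35 had 15, 20 and 7 reads in SCs and 30, 19 and 35 in M-SCs, which did not overlap once scaled for depth, and missed limma's test (difference 1.01, adjusted p = 0.052). It passed without SCs replicate 2 (adjusted p = 0.033) and on the FPKM scale (0.042). The call was also gained without the variance trend (adjusted p = 0.044), with voom on the reads (0.045) and with a pseudocount of 8 (0.046). With equal medians the Slc25a35 difference was 0.51 (limma adjusted p = 0.27). Slc25a47, a carrier gene known from liver, had 8, 0 and 2 reads in SCs and 7, 20 and 7 in E-SCs, which overlap, and missed limma's test too (adjusted p = 0.067).

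The remaining genes were near the limit of detection. Slc44a3, a choline transporter-like gene, had 6, 16 and 6 reads with exosomes and 0, 4 and 2 with conditioned medium. It passed limma's test as higher in E-SCs (difference 2.01, SE 0.72, adjusted p = 0.0286), which was lost without E-SCs replicate 2 or 3 or M-SCs replicate 1 or 3 (adjusted p from 0.057 to 0.096), with a pseudocount of 0.1 (0.065) and on the FPKM scale (0.057). Its FDR in the authors' deposited table was 0.0839. Slc35f1, an orphan member of the nucleotide sugar transporter family, had 3, 3 and 5 reads in SCs and none in the 3 E-SCs libraries. It passed limma's test as lower in E-SCs (adjusted p = 0.0083), 3.34-fold by the floor. The FDR in the authors' deposited table was 0.172. Slc12a8, of the cation-chloride cotransporter family, had 5, 8 and 0 reads in SCs and none in E-SCs, and missed limma's test (adjusted p = 0.063). It passed without SCs replicate 3, the library with no read (adjusted p = 0.0091), and with equal medians (0.043).

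**Figure D3:**
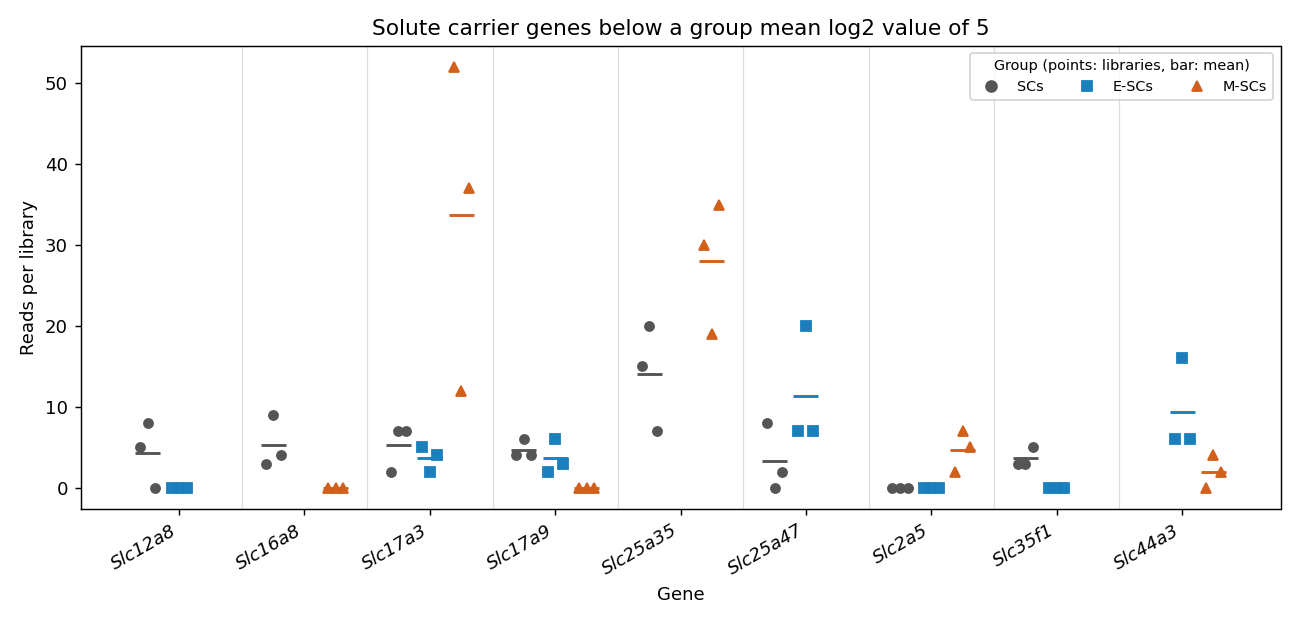
Reads per library of the 9 solute carrier genes below a group mean log2 value of 5. Points are libraries and bars are group means, and groups without points have no value in the tables used. Most libraries hold under 10 reads, and the M-SCs libraries of Slc17a3 run from 12 to 52 reads.

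The comparison of E-SCs with SCs could be made for 10 further genes that the authors had not listed for it, because the other tables hold their E-SCs and SCs values. In a limma fit of all 9 libraries, 1 of the 11 genes with values in each library passed the test for E-SCs against SCs, where 31.0% of all 316 such genes passed. In the same fit 10 of the 11 passed for M-SCs against SCs and all 11 between E-SCs and M-SCs, where 69.9% and 82.0% of the 316 passed. The 10 genes had been picked at 2-fold or more for both M-SCs comparisons on these libraries, and not all of the 316 had. Their counts in those comparisons were thus largely set by the picking. The 10 had also not been picked for E-SCs against SCs, while others of the 316 had. The count of 1 of 11 against 31.0% was therefore affected by the picking too. Among all 212 genes listed for both M-SCs comparisons and not for E-SCs against SCs, 15.1% passed for E-SCs against SCs. Of the 10 solute carrier genes among them, 1 passed. The median log2 difference was -0.16 over the 10 and -0.02 over the 212, and the median size of the difference was 0.16 and 0.25. Of the 10, 9 had a lower mean in E-SCs, against 115 of the 212, by at most 0.32 on the log2 scale, and Slc2a5 had no read in either group. The sign changed for 6 of these 9 when a library was left out, and with equal medians for Slc39a8. Slc30a1 passed, at -0.32 (95% interval -0.55 to -0.09, limma adjusted p = 0.039). The Slc30a1 call was lost without any 1 of the 3 SCs libraries, the 3 E-SCs libraries or M-SCs replicate 2 (adjusted p from 0.052 to 0.14), with equal medians (0.11) and without the variance trend (0.14). Slc6a6 differed by -0.18 (95% interval -0.36 to -0.01), with an unadjusted p of 0.040 and an adjusted p of 0.105 from limma. Without SCs replicate 1 it passed (adjusted p = 0.027).

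For the other genes the interval gives what these libraries allow. Slc39a8 differed by -0.01 between E-SCs and SCs, with a 95% interval of -0.19 to 0.17. The interval was -0.42 to 0.23 for Slc16a6. They were wider for the genes with few reads, from -0.78 to 0.51 for Slc17a6, from -0.93 to 0.74 for Slc25a48 and from -1.33 to 0.83 for Slc17a9. A p that missed the threshold does not show that these genes were alike in E-SCs and SCs. Both treatments were set against the same SCs libraries, so the differences from SCs are not independent of each other.

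**Figure D4:**
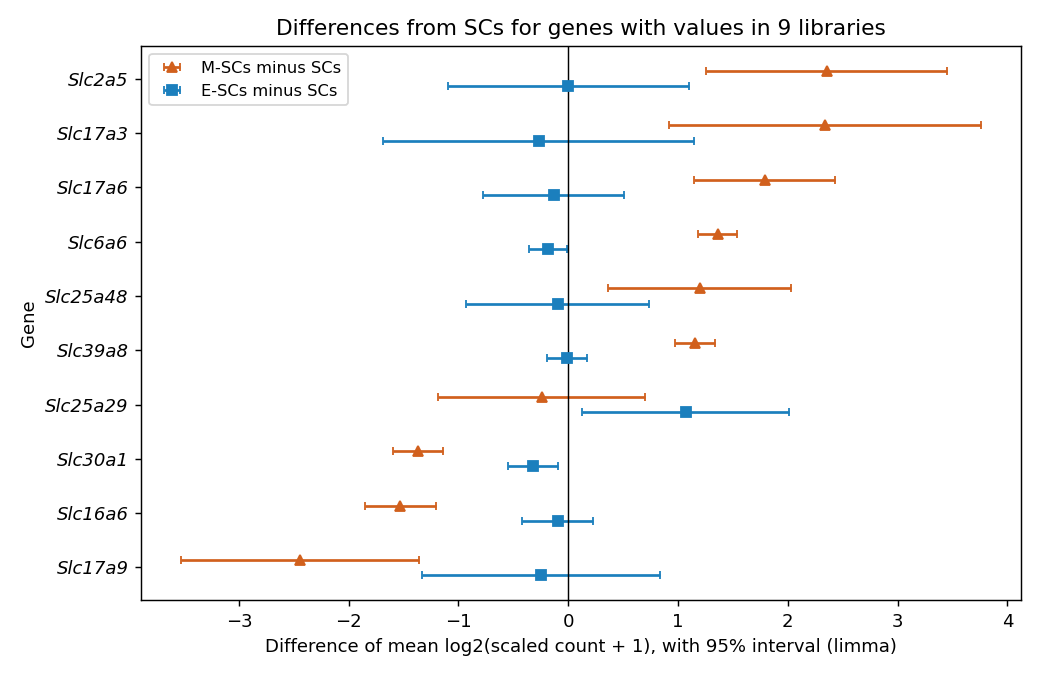
Log2 differences from SCs for 10 genes with values in all 9 libraries, from 1 limma fit, with 95% intervals. Triangles are M-SCs minus SCs and squares are E-SCs minus SCs. The M-SCs intervals lie away from 0 for 9 genes, Slc25a29 being the exception, and the E-SCs intervals include 0 for 7 genes, lying just below it for Slc6a6 and Slc30a1 and above it for Slc25a29.

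Levels per length could be ordered by FPKM for the genes that had it. In SCs, Slc30a1 was highest at 12.4 ± 0.76 (SD, n = 3), then Slc6a6 at 7.87 ± 0.73, Slc39a8 at 3.41 ± 0.23 and Slc16a6 at 2.94 ± 0.41. The libraries of Slc39a8 and Slc16a6 overlapped, at 3.19 to 3.64 and 2.60 to 3.39, so their order is not set. E-SCs kept this order of 4 genes, with no overlap between neighbours. In M-SCs the order was Slc6a6 at 20.2 ± 0.67, Slc39a8 at 7.57 ± 0.26, Slc30a1 at 4.79 ± 0.64 and Slc26a9 at 3.69 ± 0.23, also without overlap between neighbours. Slc16a6 was seventh there, at 0.926 to 1.12. Of the 16 genes with FPKM in M-SCs, 9 were under an FPKM of 1 on average.

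Other transport genes were looked up in the tables, which do not tell what share of all measured genes was listed. Of a list of 55 further transporter genes, among them the ABC transporters, organic anion polypeptides and aquaporins, 1 was listed in any table. It was Slco5a1, at a difference of 1.13 in M-SCs against SCs that missed limma's test (adjusted p = 0.061). Of 33 ion pump and carbonic anhydrase genes, 3 were listed. Car2, a carbonic anhydrase, passed as higher in E-SCs than in M-SCs at 10.3 against 1.51. Of 27 amino acid response genes, whose pathway also drives several amino acid carriers, the M-SCs and SCs table holds 3, and all fell in M-SCs, where 32.8% of all its genes passed as lower. The difference was -1.32 (SE 0.05) for Trib3, a pseudokinase of that response, -1.09 for Atf3, a transcription factor, and -1.06 for Vldlr, a lipoprotein receptor. None of the 19 genes belongs to the Slc1, Slc3, Slc7 or Slc38 families, the main amino acid carriers. Of 22 glutathione and NRF2 genes 1 was listed, Gsta1, a glutathione transferase, which rose from a mean scaled count of 27.3 in SCs to 109.9 in M-SCs (limma adjusted p = 2.15e-04).

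Listed markers of cell type differed in M-SCs too, in both directions. Of 13 Schwann cell markers 3 were listed in any table. In the E-SCs and M-SCs table, 2 of these passed as higher in E-SCs and 1 as lower, where 36.6% and 55.5% of all its genes did. Prx, a myelin protein gene, fell in M-SCs, with a difference from SCs of -1.29 (SE 0.11). Pmp22, another, was higher in M-SCs than in E-SCs (difference of E-SCs from M-SCs -1.02, SE 0.07) and was not listed against SCs. Prx had a mean scaled count of 999.9 in SCs, 950.5 in E-SCs and 408 in M-SCs, so transcripts of this Schwann cell gene were present in all groups. Of 8 macrophage and leukocyte markers 1 was listed, Cd14, which rose from a mean scaled count of 201 in SCs to 570 in M-SCs, and none of 7 fibroblast markers was listed. The part of these changes in those of the solute carriers was not tested.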

How the data were processed

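RNA of RSC96 cells was measured in 9 libraries, 3 per group, grouped by their titles. Per the labels' protocols, oligo(dT) beads enriched mRNA, random hexamers primed the cDNA and sequencing was paired-end. HISAT2, StringTie and mm10 are named, without versions or roles, in the submitters' processing notes. All 819 deposited gene identifiers are rat Ensembl identifiers although the labels give mouse, so no coordinates or sequences are given. The authors deposited log2 values per library, which, from the values themselves, are log2(scaled read count + 1). Within a library the scaled counts were multiples of the same step, which gave whole reads (to within 0.01) for every value up to 1000 reads. Total depth is unknown because only picked genes are in the tables. The authors also deposited FPKM in the tables that hold M-SCs. Their deposited p-values and FDR come from a test whose name no source used here gives.

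limma 3.58.1 (R 4.3.3) with a mean-variance trend was fitted to the 6 libraries of each table, over all its genes, without a filter, and also to all 9 libraries for the 316 genes with 9 values. All tests are two-sided. The adjustment runs over genes picked on the same libraries, so its p-values are too small. The fit was tested on simulated data without such picking, so that test does not cover its effect on the p-values. Each pair of replicates differed beyond sampling noise (chi-square per degree of freedom 5.44 to 14), and each library was counted. That spread does not tell whether the libraries were independent cultures. Read ratios have exact 95% binomial intervals, which cover counting error only. The floor of 3 reads over a group leaves out the counting error of the group with reads. Folds by the floor are therefore not lower bounds.

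Genes with a group mean log2 value of at least 5 are given with values in all libraries, the others by reads, and other lists by up to 4 genes with the smallest adjusted p. A few genes count in the totals but are not reported here by name. All genes and lists were chosen with earlier results of these data known. Joins used pandas 2.3.3, scipy 1.17.1 and numpy 2.4.6 under Python 3.11.15, and plots matplotlib 3.10.9. Alternatives were equal medians, a level filter, pseudocounts of 0.1 and 8, no trend, a replicate block, log2(FPKM + 1), voom on the reads and each library left out.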

Additional observations from a re-analysis of the deposited data

How the results depend on the processing

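The 63 named results were recomputed under 939 alternatives. Call and direction were the same in 882, the call was lost in 37 (25 of these with a library left out) and gained in 8, and the sign changed in 12 (11 with a library left out), none of a called result. The sign changes were all in the fit of 9 libraries. With a library left out, the difference of E-SCs from SCs ran from -0.18 to 0.0098 for Slc16a6, from -0.78 to 0.038 for Slc17a3, from -0.39 to 0.12 for Slc17a6, from -0.57 to 0.057 for Slc17a9, from -0.44 to 0.22 for Slc25a48 and from -0.054 to 0.041 for Slc39a8 (0.023 with equal medians). That of M-SCs from SCs ran from -0.59 to 0.023 for Slc25a29. Between E-SCs and SCs, 2 of 4 solute carrier genes were called, against 1 to 2 with a library left out, 0 of the 1 gene that a fit of all 9 libraries holds, and 1 by the authors' FDR. Between M-SCs and SCs, 11 of 12 were called, against 7 of 7 when the mean log2 value had to reach 5 and 9 to 12 with a library left out. Between E-SCs and M-SCs, 14 of 14 were called, against 8 of 8 at that level and 12 to 14 with a library left out. The fit of 9 libraries called 1 of 11 between E-SCs and SCs, against 0 with equal medians, 0 without the trend and 0 to 1 with a library left out. It called 10 of 11 between M-SCs and SCs (9 to 10 with a library left out) and 11 of 11 between E-SCs and M-SCs (10 to 11, and 7 of 7 at the higher level). The level filter tests fewer genes, and leaving out a library leaves fewer samples. The cause of the other changes was not tested. Equal medians, taken over genes picked for differing, moved the differences in the fits of 6 libraries by -0.23 between E-SCs and SCs, -0.50 between M-SCs and SCs and 0.46 between E-SCs and M-SCs, and those in the fit of 9 libraries by 0.03, -0.55 and 0.58. After that shift, in the fits of 6 libraries, Slc30a1 and Slc16a6 differed by -1.875 and -2.03 between M-SCs and SCs, both past the threshold. Voom, added with the results known like the count by the authors' FDR, called 2, 12 and 14 genes.

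Same-numbered libraries did not deviate together, with correlations over the listed genes from -0.07 to 0.02. Over genes with a mean log2 value of at least 5 they ran from -0.30 to 0.16, against up to 0.31 between differently numbered libraries. The numbers were therefore not taken as pairs. With the replicate number as a block, 2, 11 and 14 solute carrier genes were called in the fits of 6 libraries and 1, 10 and 11 in that of 9. Depth limits genes such as Slc17a9, Slc2a5, Slc35f1 and Slc16a8, which had under 10 reads in each library.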
